A study of Rattus norvegicus with 6 samples.

Results

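The phagocyte NADPH oxidase, the related oxidase Nox4 and the nitric oxide synthases were examined in rat lumbar spinal cord. Of 9 genes chosen by name (Cybb, Cyba, Ncf1, Ncf4, Rac2, Nox4, Nos1, Nos2 and Nos3), 8 were named by a transcript cluster of the array, out of 20530 genes named in all. Cyba was not analysed here. Nos2 was named by a pair of clusters and the other 7 genes by 1 cluster each, and the brighter cluster over the 6 arrays stood for Nos2. The arrays came from 3 Sprague-Dawley rats given 20 µL of 10% lidocaine, which stops nerve conduction by closing sodium channels, into the intrathecal space, and from 3 Sprague-Dawley rats that had no treatment. Cord from L2 to L6 was collected on day 4 after behavioural tests, with 1 array per rat. Since the controls had no injection, the drug and the injection cannot be told apart.

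Phagocytes make superoxide with an oxidase whose membrane core is formed by the products of Cybb, the catalytic subunit also called NOX2 or gp91phox, and Cyba. The core is switched on when cytosolic subunits, among them p47phox from Ncf1 and the p40phox protein from Ncf4, and the small GTPase Rac2 join it. Nitric oxide synthases make nitric oxide from arginine, with Nos1 known mainly from neurons, Nos3 from endothelium and Nos2 as the form that macrophages and other cells switch on under inflammatory signals. In the cord, microglia and entering myeloid cells are the cells best known for the phagocyte oxidase, and nitric oxide from neurons acts on soluble guanylate cyclase.

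The promoters of Cybb and Ncf1 are shown because these subunits of the same complex both rose, a choice made after their values were seen. RefSeq promoter windows on GRCr8, 250 bases before to 50 bases after the annotated start, matched 6 of the 9 genes, and Ncf4, Rac2 and Nos2 had none in the table. Capitals mark 3 motifs searched on both strands: GAGGAA, the core of the purine-rich box that the myeloid factor PU.1 binds, CCAAT, and the GC box GGGCGG. The windows lie on the minus strand at chrX:16065016-16065315 for Cybb and on the plus strand at chr12:28121635-28121934 for Ncf1.
Cybb: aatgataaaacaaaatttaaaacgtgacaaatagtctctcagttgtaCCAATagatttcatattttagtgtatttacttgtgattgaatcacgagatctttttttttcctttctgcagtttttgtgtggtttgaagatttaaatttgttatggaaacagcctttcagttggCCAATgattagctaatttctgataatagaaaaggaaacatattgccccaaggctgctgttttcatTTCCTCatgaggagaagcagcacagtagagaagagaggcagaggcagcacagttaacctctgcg
Ncf1: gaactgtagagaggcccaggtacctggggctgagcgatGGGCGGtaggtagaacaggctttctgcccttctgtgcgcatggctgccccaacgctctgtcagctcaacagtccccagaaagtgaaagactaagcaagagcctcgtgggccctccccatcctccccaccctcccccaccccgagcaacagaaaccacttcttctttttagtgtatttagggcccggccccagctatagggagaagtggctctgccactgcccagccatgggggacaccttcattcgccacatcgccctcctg
The Cybb window held 1 match to GAGGAA, on the opposite strand and 14 bases before the start, and 2 matches to CCAAT, 203 and 79 bases before it. In the Ncf1 window 1 GGGCGG lay 212 bases before the start, and the letters of the other motifs were not in it. GGGCGG was also in the windows of Cyba, Nox4, Nos1 and Nos3, which held neither GAGGAA nor CCAAT. Over 27457 promoters of the same length, 27.5% held GAGGAA, 37.7% CCAAT and 34.9% GGGCGG. These matches are descriptions of the letters and not measured binding.

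All 4 measured genes of the phagocyte oxidase rose in the lidocaine rats, by 2.30-fold to 4.13-fold. Nos3 rose slightly and Nos1 fell slightly, both close to the threshold. Nos2 differed by 3.01-fold on average but was high in 2 of 3 lidocaine rats and did not pass, and Nox4 did not pass. A gene is called here when limma's adjusted p over all 20530 genes was under 0.05. By that rule 5 members rose and 1 fell, against a background in which 23.7% of all genes were called, 9.7% higher and 14% lower. The groups did not overlap for 7 members, 6 of them higher and 1 lower, while 40.5% of all genes had groups apart, 15.9% higher and 24.6% lower. The median log2 change of the 8 members was 1.24, and that of all genes was -0.0095. In whole cord a change in the number of cells of a type and a change of RNA per cell cannot be told apart.

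**Figure D1:**
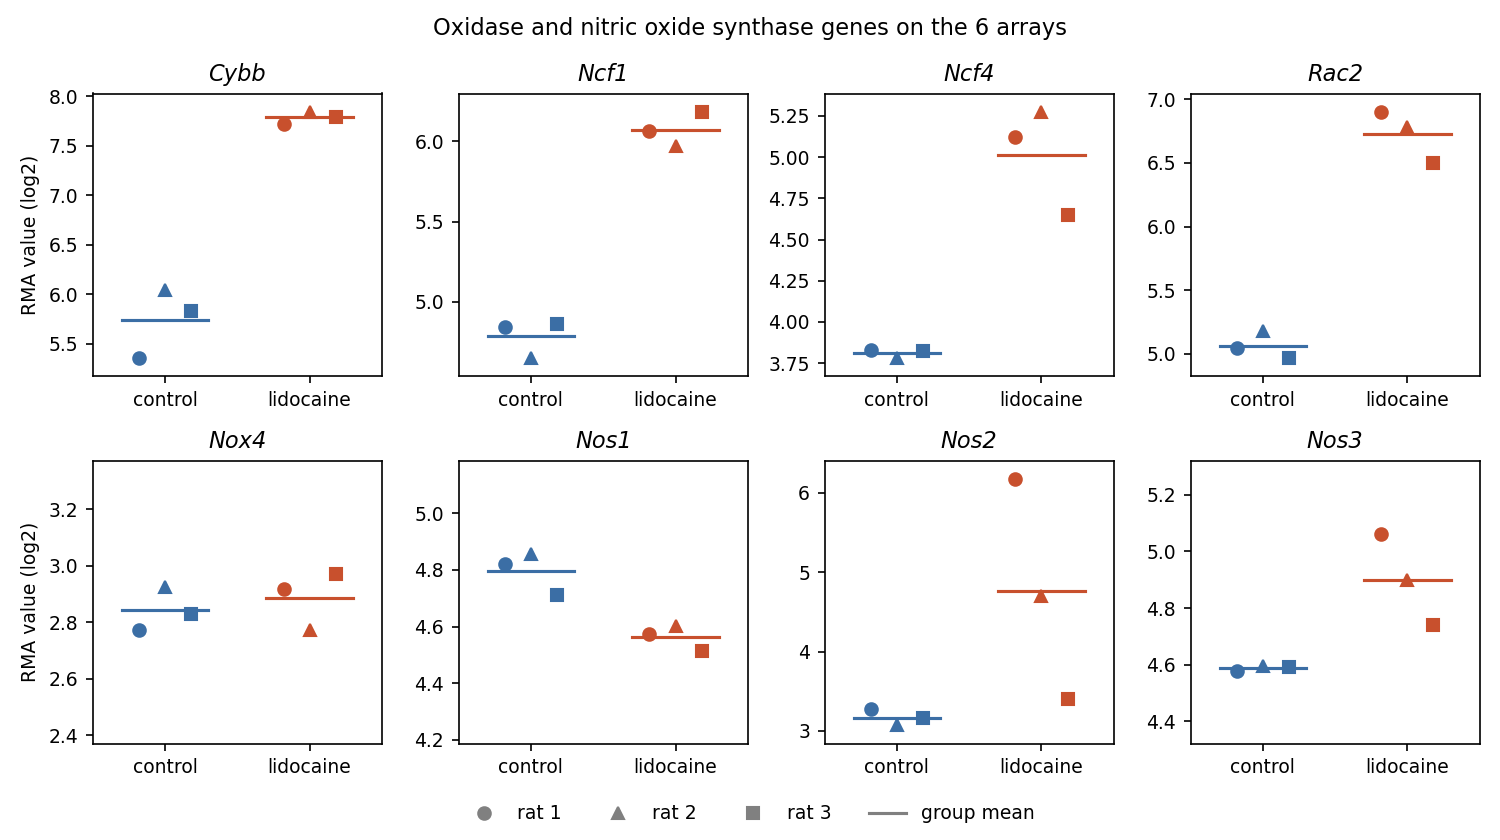
RMA value (log2) of each of the 8 measured genes on the 6 arrays, with 1 marker shape per rat number and a line at each group mean. Vertical axes differ between panels, and levels of different genes are not comparable. The lidocaine values of Cybb, Ncf1, Ncf4 and Rac2 lie far above the controls, while those of Nos2 run from 3.40 to 6.17.

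Values are RMA summaries on the log2 scale, so they are relative brightness within an array. Array medians over the named genes lay between 4.56 and 4.59 in the controls and between 4.61 and 4.66 in the lidocaine rats. Across all genes, arrays of the same group correlated at 0.993 to 0.997 and arrays of different groups at 0.978 to 0.985, as a description, since genes are not independent replicates. Of all genes 1992 rose and 2875 fell, so rises were 40.9% of the calls, and 30.1% with arrays centred on their median. Markers of spinal cord tissue were bright in the controls, with Snap25 of neurons at 10.39 ± 0.03, Gfap of astrocytes at 9.05 ± 0.10 and Cnp of oligodendrocytes at 8.85 ± 0.05 (log2, SD, n = 3). The number of arrays limits the precision, and an exact permutation test of 3 against 3 cannot give a p under 0.1, which is the value it gave for every member except Nox4 (two-sided, exact p = 0.8).

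Cybb, the catalytic subunit, read 5.36, 6.04 and 5.83 in control rats 1 to 3 and 7.72, 7.84 and 7.79 in lidocaine rats 1 to 3 (log2). Every lidocaine rat lay above every control, and the lidocaine rats lay closer together than the controls did. The mean rose from 5.74 ± 0.35 to 7.79 ± 0.06 (SD, n = 3), a 4.13-fold rise (log2 change 2.05 ± 0.16, SE, limma adjusted p = 0.000261). This was the 56th largest rise of the 20530 genes. On its own scale 94.9% of the 1153 negative control rows lay below Cybb in the controls, so few negative controls were brighter than it in either group.

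Ncf1, the organiser subunit p47phox that carries the cytosolic subunits to the membrane, read 4.85, 4.65 and 4.86 in the controls and 6.06, 5.97 and 6.18 in the lidocaine rats (log2). The groups did not overlap, and the 3 rats of each group lay close together. The rise was 2.44-fold (log2 change 1.29 ± 0.08, SE, n = 3 per group, limma adjusted p = 0.000146).

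Ncf4, the p40phox subunit, which binds a phosphoinositide on the phagosome membrane, read 3.83, 3.78 and 3.83 in the controls and 5.12, 5.27 and 4.65 in the lidocaine rats (log2). The controls were nearly equal, all lidocaine rats were higher and lidocaine rat 3 was the lowest of them. The rise was 2.30-fold (log2 change 1.20 ± 0.15, SE, n = 3 per group, limma adjusted p = 0.0018).

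Rac2, the GTPase of blood cells that completes the active oxidase, read 5.05, 5.18 and 4.97 in the controls and 6.90, 6.78 and 6.50 in the lidocaine rats (log2). Again the groups did not overlap and lidocaine rat 3 was the lowest of its group. The rise was 3.16-fold (log2 change 1.66 ± 0.11, SE, n = 3 per group, limma adjusted p = 0.000149). Rac1, the widely expressed relative of Rac2, which was chosen for naming after its value was seen, had a log2 change of 0.020 and did not pass (adjusted p = 0.879). The calls of Cybb, Ncf1, Ncf4 and Rac2 held without any 1 rat, with log2 changes from 1.07 for Ncf4 to 2.20 for Cybb over those fits.

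**Figure D2:**
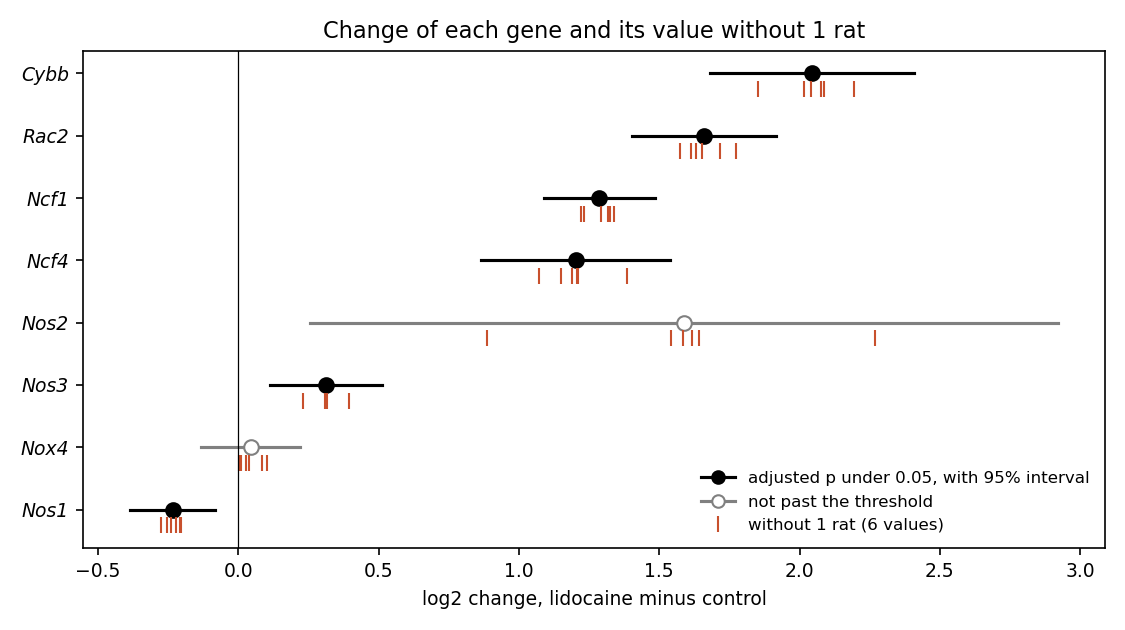
Log2 change of each measured gene, lidocaine minus control, with its 95% interval from the moderated fit (n = 3 per group), and below it the 6 values obtained when 1 rat is left out. The intervals of Cybb, Rac2, Ncf1 and Ncf4 lie above 0.86, and the values of Nos2 without 1 rat spread from 0.88 to 2.27.

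Nox4, an oxidase that makes hydrogen peroxide without the cytosolic subunits, read 2.77, 2.92 and 2.83 in the controls and 2.92, 2.77 and 2.97 in the lidocaine rats (log2). The groups overlapped. Its log2 change was 0.045 with a 95% interval from -0.13 to 0.22 (limma adjusted p = 0.733, n = 3 per group). It was dim, with 54.2% of negative controls below it in the controls and 53.6% in the lidocaine rats, so a change in a low level may not be detectable here.

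Nos2, the inducible synthase, read 3.27, 3.07 and 3.16 in the controls and 6.17, 4.71 and 3.40 in the lidocaine rats (log2). Lidocaine rat 1 stood 3.00 above the control mean, rat 2 stood 1.54 above it and rat 3 only 0.23, so the groups did not overlap but lidocaine rat 3 was close to the controls. The mean difference was 3.01-fold (log2 change 1.59 ± 0.58, SE). It did not pass in limma (adjusted p = 0.0862, and 0.0251 before adjustment over all genes). The unadjusted 95% interval ran from 0.26 to 2.92. Its SD of 1.38 among the lidocaine rats was larger than that of 20522 of the 20530 genes. Without lidocaine rat 3 the log2 change was 2.27 and passed (adjusted p = 0.00711), and without lidocaine rat 1 it was 0.88 and did not (adjusted p = 0.105).

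The dimmer Nos2 cluster gave the same order of rats. It read 2.53, 2.50 and 2.45 in the controls, below the median negative control level of 2.71, and 5.63, 4.35 and 2.75 in the lidocaine rats (log2). Lidocaine rat 3 was thus at about the median negative control level, and rats 1 and 2 were far above it. Against that level the lidocaine mean was at least 2.89-fold higher. Both clusters come from the same RNA, so the second is not independent support. Other values differed between the lidocaine rats too. In lidocaine rats 1 to 3 the neutrophil markers S100a9 and Mmp8 read 6.96, 6.99 and 6.47, and 6.01, 5.96 and 5.30 (log2). Both were lowest in rat 3, as Nos2 was. Among the other neutrophil markers, Camp, Ngp, Elane and Mpo, named after their values were seen, were highest in rat 3 and the rest lowest. Over all 12 neutrophil markers the summed linear level was 432, 491 and 460, lowest in rat 1. The summed linear level of 13 microglia and macrophage markers was 2278, 2414 and 2499, highest in rat 3. Lidocaine rat 3 also stood apart in red blood cell markers, whose summed linear level was 938 and 1143 in lidocaine rats 1 and 2, 1915 in rat 3 and 1537 to 1874 in the controls. The part of blood and of these cells in the Nos2 values was not tested.

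**Figure D3:**
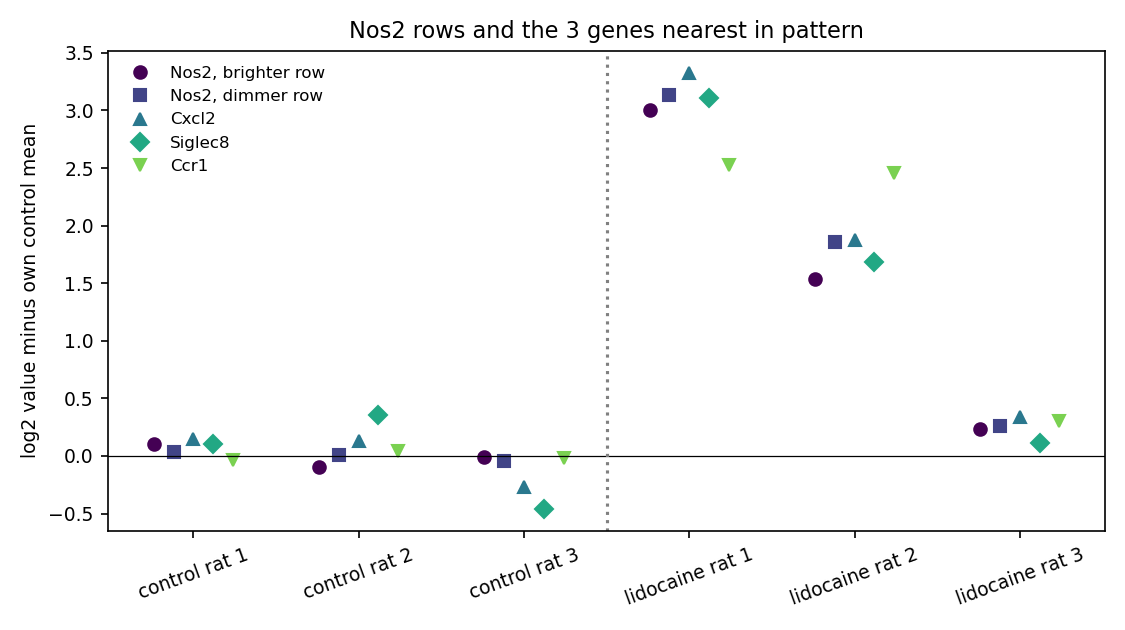
Log2 value minus the gene's own control mean on each array for both Nos2 clusters and the 3 genes nearest to Nos2 in pattern. In lidocaine rat 1 all 5 stand 2.53 to 3.33 above their control mean, and in lidocaine rat 3 they stand 0.11 to 0.34 above it.

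Nos1, the neuronal synthase, read 4.82, 4.86 and 4.71 in the controls and 4.57, 4.60 and 4.51 in the lidocaine rats (log2). The lidocaine rats were lower without overlap, by a gap of 0.11. The mean was 1.18-fold lower, a log2 change of -0.23 ± 0.07 (SE, n = 3 per group, limma adjusted p = 0.037). This call was lost when any 1 of the 6 rats was left out (adjusted p 0.0532 to 0.117). Over the same arrays 8 of 9 neuron markers and all 5 inhibitory neuron markers fell, against 14% of all genes. The median log2 changes of these lists were -0.45 and -0.55, each larger in size than that of Nos1. The summed linear level of the neuron list was 5880 to 6081 in the controls and 3998 to 4959 in the lidocaine rats, that of the inhibitory list 808 to 923 and 451 to 639, and no marker of either list was at background. The part of these cells in the Nos1 value was not tested. Without control rat 2, 4 neuron markers and 1 inhibitory marker were called, and 3 inhibitory markers without control rat 1 or without control rat 3. Among the inhibitory markers, the fall of Pax2, a transcription factor of inhibitory neurons, held without any 1 rat. Slc32a1, the vesicular GABA and glycine transporter, missed the threshold when control rat 2 was left out (adjusted p = 0.0521), and the glycine transporter Slc6a5 missed it without any 1 control rat (adjusted p 0.0663 to 0.0843).

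Nos3, the endothelial synthase, read 4.58, 4.59 and 4.59 in the controls and 5.06, 4.90 and 4.74 in the lidocaine rats (log2). All lidocaine rats were higher, with a gap of 0.14 to the controls and rat 1 highest, as for Nos2. The Nos3 mean was 1.24-fold higher, with a log2 change of 0.31 ± 0.09 (SE, n = 3 per group, limma adjusted p = 0.0349). The call was lost without any 1 control rat or without lidocaine rat 1 or 2 (adjusted p 0.0807 to 0.1), and also with arrays centred on their median (adjusted p = 0.0609). Of 10 endothelial markers 2 rose, the TGF-beta co-receptor Eng (log2 change 0.99) and von Willebrand factor, Vwf (0.59), 8 did not pass, and the list median was 0.080. With 2 of 10 called, against 23.7% of all genes, the count does not set this list apart. The summed linear level of the 10 markers was 551 to 662 in the controls and 650 to 771 in the lidocaine rats, with no marker at background. The part of endothelium in the Nos3 value was not tested.

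The 4 oxidase genes rose, and so did most markers of microglia and macrophages. Their order among the lidocaine rats differed. In lidocaine rats 1 to 3 the summed linear level of the 4 oxidase genes was 433, 441 and 410. That of the microglia and macrophage markers was 2278, 2414 and 2499. Of 13 such markers 12 rose, against 9.7% of all genes, 0 fell and 1 did not pass. Their median log2 change was 1.24, against a median of 1.47 for the 4 oxidase genes. C1qb, a complement subunit, rose 5.07-fold, the myeloid adaptor Tyrobp 3.50-fold and the Fc receptor chain Fcer1g 2.36-fold. Tmem119, Cx3cr1 and P2ry12 of this list were chosen for naming after their values were seen. Tmem119 did not pass, with a log2 change of 0.16 (limma adjusted p = 0.419). Cx3cr1 rose 1.69-fold and P2ry12 1.57-fold, and P2ry12 missed the threshold without control rat 3 (adjusted p = 0.056). The gene for PU.1, Spi1, which belongs to this marker list but was chosen for naming after its value was seen, rose 1.76-fold (adjusted p = 0.000253). The summed linear level of the list was 893 to 959 in the controls and 2278 to 2499 in the lidocaine rats, and none of the 13 was at background.

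Neutrophils also use this oxidase, and 7 of 12 neutrophil markers rose, against 9.7% of all genes. Of the 12, 0 fell and 5 did not pass, and the median log2 change was 0.92. S100a9 rose 4.79-fold, Mmp8 3.86-fold and S100a8 2.73-fold. Their summed linear level was 155 to 210 in the controls and 432 to 491 in the lidocaine rats, and Ltf and Fpr1 were at background in both groups. The order of the lidocaine rats in that sum depends on the granule protein Ngp, named after its values were seen, which read 4.04, 5.31 and 6.90 in them (log2) and did not pass. Of 10 lymphocyte markers, 2 rose and 8 did not pass (summed linear level 136 to 149 and 136 to 240), and Cd3d, Cd3e, Cd3g and Ms4a1 were at background in both groups. With 2 of 10 called, against 23.7% of all genes, that count does not set the lymphocyte list apart. The parts of these cell types in the oxidase values were not tested. Of 4 red blood cell markers 0 passed in limma, with 1 at an unadjusted p under 0.05, and of 6 pericyte and smooth muscle markers 0 passed, with 0 at that level. Without lidocaine rat 3, however, 3 red blood cell markers were lower, the heme synthesis enzyme Alas2 (adjusted p = 0.001) and the globins Hba-a1 (0.00834) and Hbb (0.0148), as were 2 pericyte and smooth muscle markers, Rgs5 (0.0411) and Myh11 (0.0496). Of 6 fibroblast markers 2 rose, Dcn and Pdgfra (log2 changes 0.71 and 0.64), and 4 did not pass. Of 3 Schwann cell markers 1 fell, Mal (-0.59), and 2 did not pass. Whether these changes came from the cell types that the lists are named for was not tested.

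By pattern over the 6 arrays, the genes nearest to each oxidase member were found by the root mean square difference after each gene's own control mean was taken off, over 18021 genes outside the 8 members, with unnamed loci and pseudogenes left out. For Cybb these were Mpeg1, a pore-forming protein of macrophages, at a distance of 0.16, Anxa1 at 0.17 and the leukocyte phosphatase Ptprc, or CD45, at 0.18 (log2). Those of Ncf1 were Fcer1g, Ncapg and Rnaset2 at 0.076 to 0.098. Ncf4 was nearest to the myeloid kinase Fgr, the inflammatory caspase Casp1 and Rab32, at 0.10 to 0.12. Rac2 was nearest to the myeloid kinase Lyn, Igsf6 and Kng2 at 0.087 to 0.096. All 12 of these genes rose, which their choice by closeness to members that rose largely fixed in advance. Ncapg and Kng2 were at background in the controls. Closeness here is a description of 6 values per gene.

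For Nos2 the nearest genes were the neutrophil-attracting chemokine Cxcl2 at 0.25, Siglec8 at 0.28 and the chemokine receptor Ccr1 at 0.43. Cxcl2 read 3.67, 3.66 and 3.25 in the controls and 6.86, 5.41 and 3.87 in the lidocaine rats (log2). Being chosen for closeness to Nos2, it was likewise highest in lidocaine rat 1 and near the controls in lidocaine rat 3. It did not pass (limma adjusted p = 0.0702). Siglec8 did not pass either (adjusted p = 0.112). Both passed without lidocaine rat 3 (adjusted p 0.00483 and 0.00837), with log2 changes of 2.60 and 2.39, against 1.11 and 0.90 without lidocaine rat 1. Ccr1 passed (adjusted p = 0.0449) but lost the call without any 1 rat other than lidocaine rat 3 (adjusted p 0.101 to 0.137). Its controls were at background. The genes nearest to Nos3 were Stfa2l1, Txnrd1 and Ssh2, and those nearest to Nos1 were Zfp68, Tomm6 and Cetn2, all within 0.047. Of these 6, Tomm6 did not pass, and each of the other 5 lost its call in 5 of the 6 fits that left out 1 rat. Stfa2l1 was at background in both groups.

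Genes that assemble and switch on the oxidase mostly rose. Among 19 measured, 13 rose, 3 fell and 3 did not pass, against 9.7% of all genes higher and 14% lower. The median log2 change was 0.95. Itgam, the integrin subunit CD11b, rose 4.51-fold, the kinase Lyn 2.99-fold, Arhgdib, which holds Rac GTPases in the cytosol of blood cells, 2.65-fold, the Rac exchange factors Vav1 and Dock2 2.24-fold and 2.24-fold, and the kinase Syk 1.93-fold (n = 3 per group, limma adjusted p 5.85e-05 to 0.000323). The 3 that fell, chosen for naming after their values were seen, were the Rac effector kinase Pak1, the Rac exchange factor Tiam1 and the protein kinase C gene Prkcb (log2 changes -0.53, -0.33 and -0.24). The call of Prkcb was lost without any 1 control rat or without lidocaine rat 2 or 3 (adjusted p 0.0573 to 0.0998). Some of these genes, such as Itgam, are themselves markers of myeloid cells.

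Among 12 other oxidase genes 1 rose and 1 fell, 10 were not called, and the median log2 change was 0.084. With 2 of 12 called, against 23.7% of all genes, the count does not set this list apart. Poldip2, a partner of Nox4, fell by 0.36 on the log2 scale (adjusted p = 0.0138), and leaving out control rat 2 ended that call (adjusted p = 0.0527). Hvcn1, the voltage-gated proton channel that balances the charge moved by the phagocyte oxidase, rose 1.27-fold (adjusted p = 0.0435), a call that held only without control rat 2 among the fits that left out 1 rat and was otherwise lost (adjusted p 0.0502 to 0.146). Cybc1, which the gp91phox protein needs to mature, had a log2 change of 0.087 and was chosen for naming after its value was seen (adjusted p = 0.425). The other catalytic genes Nox1 and Nox3 and the maturation factor Duoxa2 were at background in both groups.

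**Figure D4:**
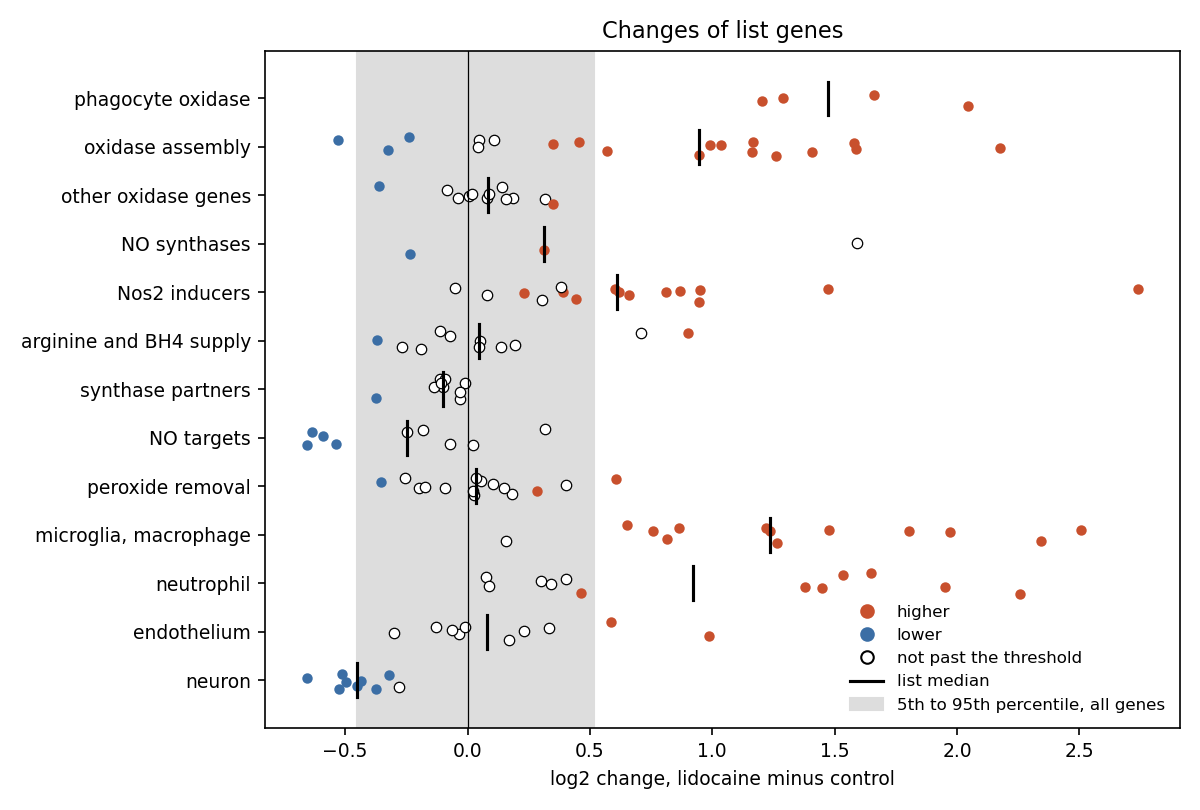
Log2 change of every measured gene of 13 gene groups, lidocaine minus control, with 1 point per gene, filled where adjusted p was under 0.05, and a bar at each group median. The grey band from -0.45 to 0.52 spans the 5th to 95th percentile of all 20530 genes. The phagocyte oxidase, its assembly genes, the Nos2 inducers and the microglia, macrophage and neutrophil markers reach far above the band, as does Nos2. Below it lie 4 nitric oxide targets, several neuron markers and Pak1.

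Inducers of Nos2 and genes of their signalling rose in 12 of 16 cases, against 9.7% of all genes. Of the 16, 0 fell and 4 did not pass, and the median log2 change was 0.61. The interferon gamma receptor genes Ifngr1 and Ifngr2 rose 1.93-fold and 1.52-fold, the interleukin-1 receptor Il1r1 2.78-fold, Tlr2 1.83-fold, the kinase Jak2 1.93-fold and the transcription factor Irf1 1.58-fold (n = 3 per group, limma adjusted p 0.000104 to 0.00241). The cytokine gene Il1b, chosen for naming after its value was seen, had the largest log2 change of the list, 2.74. It read 7.17, 6.40 and 4.44 in lidocaine rats 1 to 3 (log2, limma adjusted p = 0.0137). Without control rat 2 it missed the threshold (adjusted p = 0.0536). Ifng itself was at background in both groups. The count of rises was 8 to 12 when 1 rat was left out.

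Among 11 genes that supply arginine and the cofactor tetrahydrobiopterin there was 1 rise and 1 fall, and 9 were not called. That is 2 of 11, against 23.7% of all genes, so the count does not set this list apart. Gch1, the rate-limiting enzyme of the cofactor's synthesis, read 4.00, 3.72 and 3.79 in the controls and 4.79, 5.18 and 4.23 in the lidocaine rats (log2). It was higher in every lidocaine rat and rose 1.87-fold (log2 change 0.90 ± 0.21, SE, limma adjusted p = 0.0199), which missed the threshold when control rat 2 or 3 was left out (adjusted p 0.0658 to 0.0781), and then 0 genes of the list were called. Qdpr, which regenerates the cofactor, fell by 0.37 on the log2 scale (adjusted p = 0.0323), a call that held among the fits that left out 1 rat only without control rat 1 (otherwise adjusted p 0.0523 to 0.101). Arg1, the arginase that competes with Nos2 for arginine, read 4.61, 4.58 and 4.45 in the controls and 5.91, 5.32 and 4.54 in the lidocaine rats (log2). As for Nos2, lidocaine rat 3 was near the controls, and the log2 change of 0.71 did not pass (adjusted p = 0.127), although it did without that rat at 1.07 (adjusted p = 0.00586). Without lidocaine rat 1 the change of Arg1 was 0.38.

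Downstream of nitric oxide, 4 of 9 genes fell, against 14% of all genes, 0 rose and 5 did not pass. The median log2 change was -0.25. The 4 that fell were all 3 measured subunit genes of soluble guanylate cyclase, the nitric oxide receptor, and 1 of the cGMP-dependent kinases. Gucy1b1, the shared beta subunit, read 7.80, 7.85 and 7.64 in the controls and 7.24, 7.32 and 6.84 in the lidocaine rats (log2), and its mean fell by 0.63 ± 0.13 in log2 units (SE), which is 1.55-fold (limma adjusted p = 0.0109, n = 3 per group). Gucy1a2 read 6.22, 6.34 and 6.32 against 5.81, 5.69 and 5.42 and was 1.57-fold lower (adjusted p = 0.00491), and Gucy1a1 read 4.90, 4.99 and 4.76 against 4.29, 4.32 and 4.42 and was 1.45-fold lower (adjusted p = 0.00345). No lidocaine value of these subunits overlapped a control value, and 24.6% of all genes were lower without overlap. Prkg2, the type II kinase, was 1.51-fold lower (adjusted p = 0.0067), and Prkg1 had a log2 change of -0.25 and did not pass (adjusted p = 0.0698). These falls held without any 1 rat. Markers of several cell types fell on the same arrays, beside the neuron lists given above. Of 5 oligodendrocyte markers 3 fell, among them the myelin genes Opalin and Cnp by 0.80 and 0.60 on the log2 scale, with a list median of -0.44 and a summed linear level of 2137 to 2308 in the controls and 1581 to 1936 in the lidocaine rats. Of 5 astrocyte markers 2 fell, among them Aldh1l1 by 0.56, and Gfap rose by 0.80, with a summed linear level of 2758 to 2943 and 2350 to 3125. No marker of either list was at background. The part of neurons, oligodendrocytes and astrocytes in the falls of the guanylate cyclase genes and Prkg2 was not tested.

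Partners and inhibitors of the synthases changed in 1 of 9 cases, with 0 rises, against 23.7% of all genes called. Dlg4, the scaffold PSD-95 that holds Nos1 at synapses, was 1.29-fold lower (adjusted p = 0.013), and without control rat 2 it missed the threshold (adjusted p = 0.0518). Nosip, Nos1ap and Dynll1, which bind synthases, changed by -0.10, -0.11 and -0.091 in log2 units, none past the threshold. Of 15 genes that remove superoxide and peroxide, or use peroxide as peroxidases, 2 rose and 1 fell, and the other 12 were not called. With 3 of 15 called, against the same 23.7%, neither count sets its list apart. Gpx1, a glutathione peroxidase, rose 1.52-fold (adjusted p = 0.0033), and Sod1, a superoxide dismutase, had a log2 change of -0.20 and did not pass (adjusted p = 0.109). Txnrd1 rose 1.22-fold and Prdx3 fell by 0.35 on the log2 scale, and Txnrd1 missed the threshold without any 1 rat other than lidocaine rat 3 (adjusted p 0.0727 to 0.123), as Prdx3 did without control rat 1 or 2 (adjusted p 0.0655 to 0.0751).

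Ncf4 and Rac2 lie near each other on rat chromosome 7, with 9 protein-coding genes between them in the GRCr8 annotation, and all 9 were measured. This stretch was chosen after the values were seen. Between them 1 gene rose, 1 fell and 7 did not pass. Over all genes 9.7% rose and 14% fell, so these counts do not set the stretch apart. Csf2rb, the shared receptor chain of myeloid growth factors and the gene next to Ncf4, read 4.32, 4.22 and 4.04 in the controls and 7.66, 7.41 and 6.37 in the lidocaine rats (log2), a 7.75-fold rise (adjusted p = 0.000754). Tst, a mitochondrial sulfurtransferase, was 1.41-fold lower (adjusted p = 0.00663), and Il2rb, a receptor chain of lymphocytes, had a log2 change of 0.046 (adjusted p = 0.722). The other 6 genes that did not pass were Cimip4, Mpst, Kctd17, Tmprss6, C1qtnf6 and Sstr3.

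**Figure D5:**
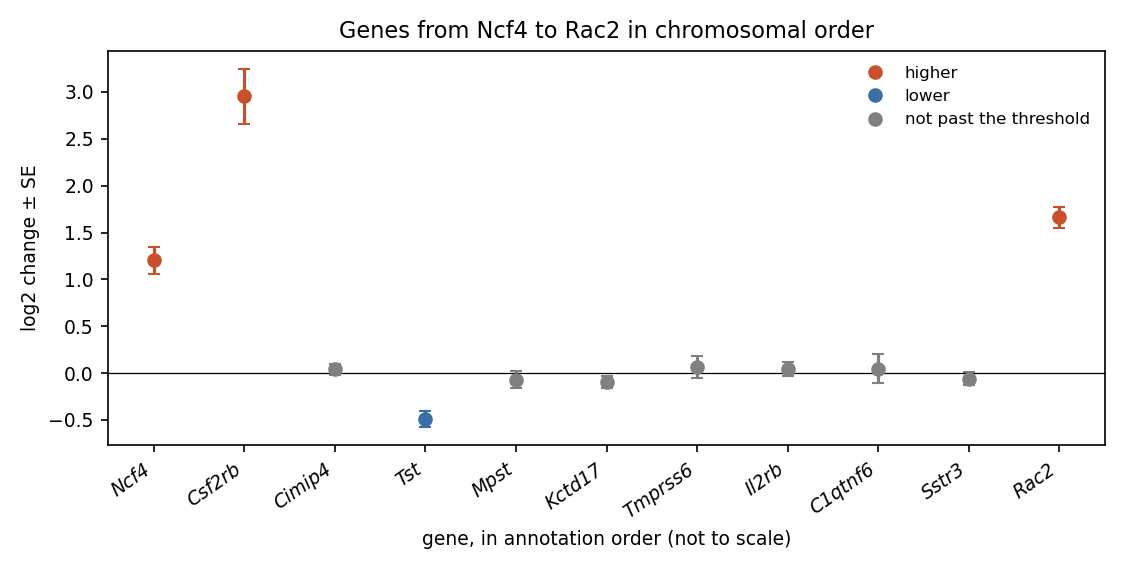
Log2 change with its SE (n = 3 per group) of the 11 genes from Ncf4 to Rac2 in the order of the annotation, with distances not to scale. Ncf4, Csf2rb and Rac2 rose, Tst fell and the other 7 lie between -0.094 and 0.065.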

How the data were processed

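The deposited values are log2 summaries per transcript cluster made by the authors with RMA, per the submitters' processing notes, from 150 ng of RNA per rat. RMA equalises distributions across arrays, so changes are relative and those of dim genes can be understated. No version of RMA, and neither the array model nor the build of its annotation, is named; these were not given in the sources used here. Of 63789 clusters, 21560 named exactly 1 gene, 471 several and 41758 none. Symbols were updated through RefSeq (GRCr8, 20304 identifiers matched, 1 changed), and the brightest cluster per gene was kept. The lidocaine and control arrays entered 1 linear model in limma 3.58.1 under R 4.3.3 (lmFit, eBayes, two-sided, Benjamini-Hochberg over 20530 genes, threshold 0.05). Folds are 2 to the power of the log2 difference. A group mean below the mean of its arrays' median negative control is called at background. Summed linear levels are sums of 2 to the power of the log2 values.

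The members, 7 pathway lists and 12 marker lists were chosen with earlier results of these data known. Of 207 list entries, 28 had no cluster naming that gene alone or repeated a gene of their list. Named genes were all members, up to 6 pathway and 3 marker genes per list with the smallest p, and the 3 nearest genes per member, apart from those said to be chosen after their values were seen. Simulated arrays had the control means and these spreads, with 50 of the 20530 genes shifted at each size. There limma recovered 64% of genes shifted by 0.5 and 96% of those shifted by 1 on the log2 scale. That share is far below the 23.7% called in the data, so these rates do not give the power here. Nothing in the labels says whether rats share a litter or day. Deviations from the group means correlated at -0.063, -0.24 and 0.14 for same-numbered arrays and at -0.22 to 0.38 for differently numbered ones. With 3 arrays per group this cannot settle whether the numbers pair the arrays. Alternatives covered the rows of a gene, normalization, a filter on dim genes, the variance model, a replicate block and leaving out each rat.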

Additional observations from a re-analysis of the deposited data

How the results depend on the processing

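Cybb, Ncf1, Ncf4 and Rac2 kept their direction and their calls in all fits that kept them. Of 20530 genes 4867 were called, and 3056 when every transcript cluster was tested on its own, 2556 with dim genes left out (fewer genes tested) and 2754 to 4335 without 1 rat, with 2754 without control rat 2 and 2906 without control rat 3. Members called were 6, against 1 of 1 with dim genes left out, where Cybb alone was bright enough to be kept, and 4 to 6 without 1 rat. Pathway genes called were 40 of 91, against 17 of the 35 kept with dim genes left out, and 28 to 41 without 1 rat. Nox4, never past the threshold, turned to -0.0029 with arrays centred on their median and to -0.044 with quantile normalization over genes. With the replicate number as a block, although nothing in the labels says that the numbers pair the arrays, 4005 genes were called. Under that block Nos1 (adjusted p = 0.0714) and Nos3 (0.0555) lost their calls and Nos2 gained one (0.0446). When every cluster was tested on its own, Nos1 (0.113) and Nos3 (0.086) also lost theirs, as did Nos3 with quantile normalization (0.0564). The causes were not tested. Averaged over the 6 arrays, every measured member except Cybb lay below 5.94, the 95th percentile of the negative controls, so signal over background limits them.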
